A study of Mus musculus with 2 samples.

Results

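The proteasome genes described here are the 48 of 55357 genes in the count matrices whose symbol is Psm, a letter from a to g and a number. They comprise 5 interferon-inducible genes (Psmb8, Psmb9, Psmb10, Psme1 and Psme2), set against 34 constitutive subunits of the 20S core (Psma1 to Psma7, Psmb1 to Psmb7) and of the 19S cap (Psmc and Psmd genes). The other 9 are the activators Psme3 and Psme4, the inhibitor Psmf1, the assembly chaperones Psmg1 to Psmg4 and the tissue-specific core subunits Psma8 and Psmb11. The 34 were taken by symbol and include Psmd5 and Psmd9, which help to assemble the base of 19S. RNA was counted in single cells sorted as CD45+ and negative for the dead-cell dye 7-AAD from MC38 tumours, a transplantable mouse colon carcinoma. One library came from SPP1fl/fl mice, called control, and the other from SPP1fl/fl-Lyz2-icre mice, so that both groups carried the floxed Spp1 allele. Lyz2-icre drives Cre recombinase from the lysozyme 2 gene of myeloid cells. Strain background, age, sex and the number of mice per library were not given in the sources used here.

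The 20S proteasome is a barrel whose inner beta subunits cut ubiquitin-tagged proteins into peptides, and the 19S cap unfolds and feeds the substrate. Interferon-gamma induces 3 replacement catalytic subunits, Psmb8, Psmb9 and Psmb10, which take the places of Psmb5, Psmb6 and Psmb7 in newly built particles. The result is the immunoproteasome, whose peptides suit MHC class I. Psme1 and Psme2 encode the alpha and beta chains of PA28, an interferon-inducible ring that caps the barrel in place of 19S. Haematopoietic cells, and dendritic cells most of all, are known to carry immunoproteasomes without added interferon, whereas most other cells build them after interferon exposure.

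Each genotype is a single library without a replicate; genotype differences are therefore untested and carry no p-value. Levels are CPM, the UMIs of a gene per 1000000 UMIs of all cells of a class. A transcript is counted near its end, not along its length, so CPM needs no scaling to gene length. Ratios are Lyz2-icre over control, with exact 95% intervals that cover the counting of UMIs alone and leave out the spread between cells and between mice. A log2 ratio has 5 CPM added to both sides, and a gene was said to have risen or fallen when it was at least 25% above or 20% below control with at least 10 CPM in the higher library. The control library kept 8724 cells with a median of 9379.5 UMIs, and the Lyz2-icre library 13915 cells with a median of 6374 UMIs. Barcodes present in both libraries numbered 43. Cells were assigned by marker gates, and cells passing the gates of several lineages were left out (9.90% and 7.51%). In macrophage-gated cells Spp1 itself had 664 CPM in the control library against 2.52 CPM, although the floxed exons were not stated and the counted end of the transcript may lie outside them. Cells with Xist RNA and cells with Y-linked RNA occurred in both libraries, so each held cells of both sexes.

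The interferon-inducible genes lie at 3 places in the genome (mm10, GENCODE vM21 annotation). Psmb8 (ENSMUSG00000024338, chr17:34197721-34201454, plus strand) and Psmb9 (ENSMUSG00000096727, chr17:34181987-34187764, minus strand) are neighbours in the class II region of the MHC. Psmb10 (ENSMUSG00000031897, chr8:105935735-105938444, minus strand) is on chromosome 8. Psme1 (ENSMUSG00000022216, chr14:55578123-55581529, plus strand) and Psme2 (ENSMUSG00000079197, chr14:55587441-55591113, minus strand) are neighbours on chromosome 14. All 5 are protein-coding. The spans of Psmb8, Psmb9, Psmb10 and Psme1 overlap Gm20496, Tap1, Gm16156 and Emc9 on the other strand. The strand setting of the counting was not stated, so reads of such pairs may not be told apart. Psme2b, a near-identical copy of Psme2, held 998 and 1148 UMIs against 24624 and 31386 of Psme2, so reads of the pair may have been split between them.

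Promoter windows from 250 bases before to 50 after the start (RefSeq, GRCm38.p6) were found for 40 of the 48 genes, including all 5 interferon-inducible ones. Both strands were searched for GAAANNGAA, the core of the interferon-stimulated response element, for TTCNNNGAA, the gamma-activated site, and for TGACNNNGC, the core of the antioxidant response element through which constitutive subunits are known to be induced under stress. The first was in 1 of the 5 interferon-inducible genes (Psme1) and 5 of 28 constitutive ones, against 8.56% of all 32851 windows. The gamma-activated site was in 1 of 5 (Psmb8) and 1 of 28 (Psmd2), against 8.30% of all windows. The third was in 0 of 5 and 5 of 28, among them Psmb5 and Psmb6, against 12.4% of all windows. Proteasome genes were counted once each and the background by window, so these shares have unlike units. The matches of the 2 interferon-inducible genes, and those of 2 of the catalytic subunits that are replaced, are printed because the results turn on these genes; each is on the gene's strand with the match in capitals. The match in Psme1 reads the motif on the opposite strand, and no match overlapped a match of another motif.
Psmb8, chr17:34198088-34198116, plus strand: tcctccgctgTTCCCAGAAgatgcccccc
Psme1, chr14:55578494-55578522, plus strand: gagctgtgctTTCGCTTTCccttcccgct
Psmb5, chr14:54618024-54618052, minus strand: cgtgaagttgTGACGTCGCggcgttgcca
Psmb6, chr11:70525338-70525366, plus strand: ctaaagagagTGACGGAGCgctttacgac
Windows start from RefSeq, whose start is at 34198195 for Psmb8 and 55578494 for Psme1, inside the longer annotated spans given for these genes from GENCODE. These are matches of letters only, and no binding was measured.

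Across the 14 cell classes with at least 30 cells in both libraries, the interferon-inducible genes had a wider range than the constitutive subunits. In the control library the highest class exceeded the lowest by a median of 6.41-fold over the 5 genes and 3.15-fold over the 34 constitutive subunits. Psmb8, the subunit that replaces Psmb5, was highest in cDC1-gated cells (1455 CPM control, 1376 CPM Lyz2-icre) and migratory DC-gated cells (1356 and 1399 CPM). It was lowest in neutrophil-gated cells (287 and 295 CPM) and in fibroblast- or tumour-gated cells (365 and 475 CPM). These 2 dendritic classes led in both libraries, whereas cDC2-gated cells had 823 and 912 CPM, close to the T-gated classes. Psmb9 was highest in the same 2 classes at lower levels, with 848 and 843 CPM in cDC1-gated cells, 620 and 528 CPM in migratory DC-gated cells, and 132 and 208 CPM in fibroblast- or tumour-gated cells. Psmb10, the third replacement subunit, was flatter. Its highest level in control was 236 CPM, in NK-gated cells, its highest in Lyz2-icre was 279 CPM, in monocyte-gated cells, and cDC1-gated cells, with 166 and 150 CPM, did not lead.

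**Figure D1:**
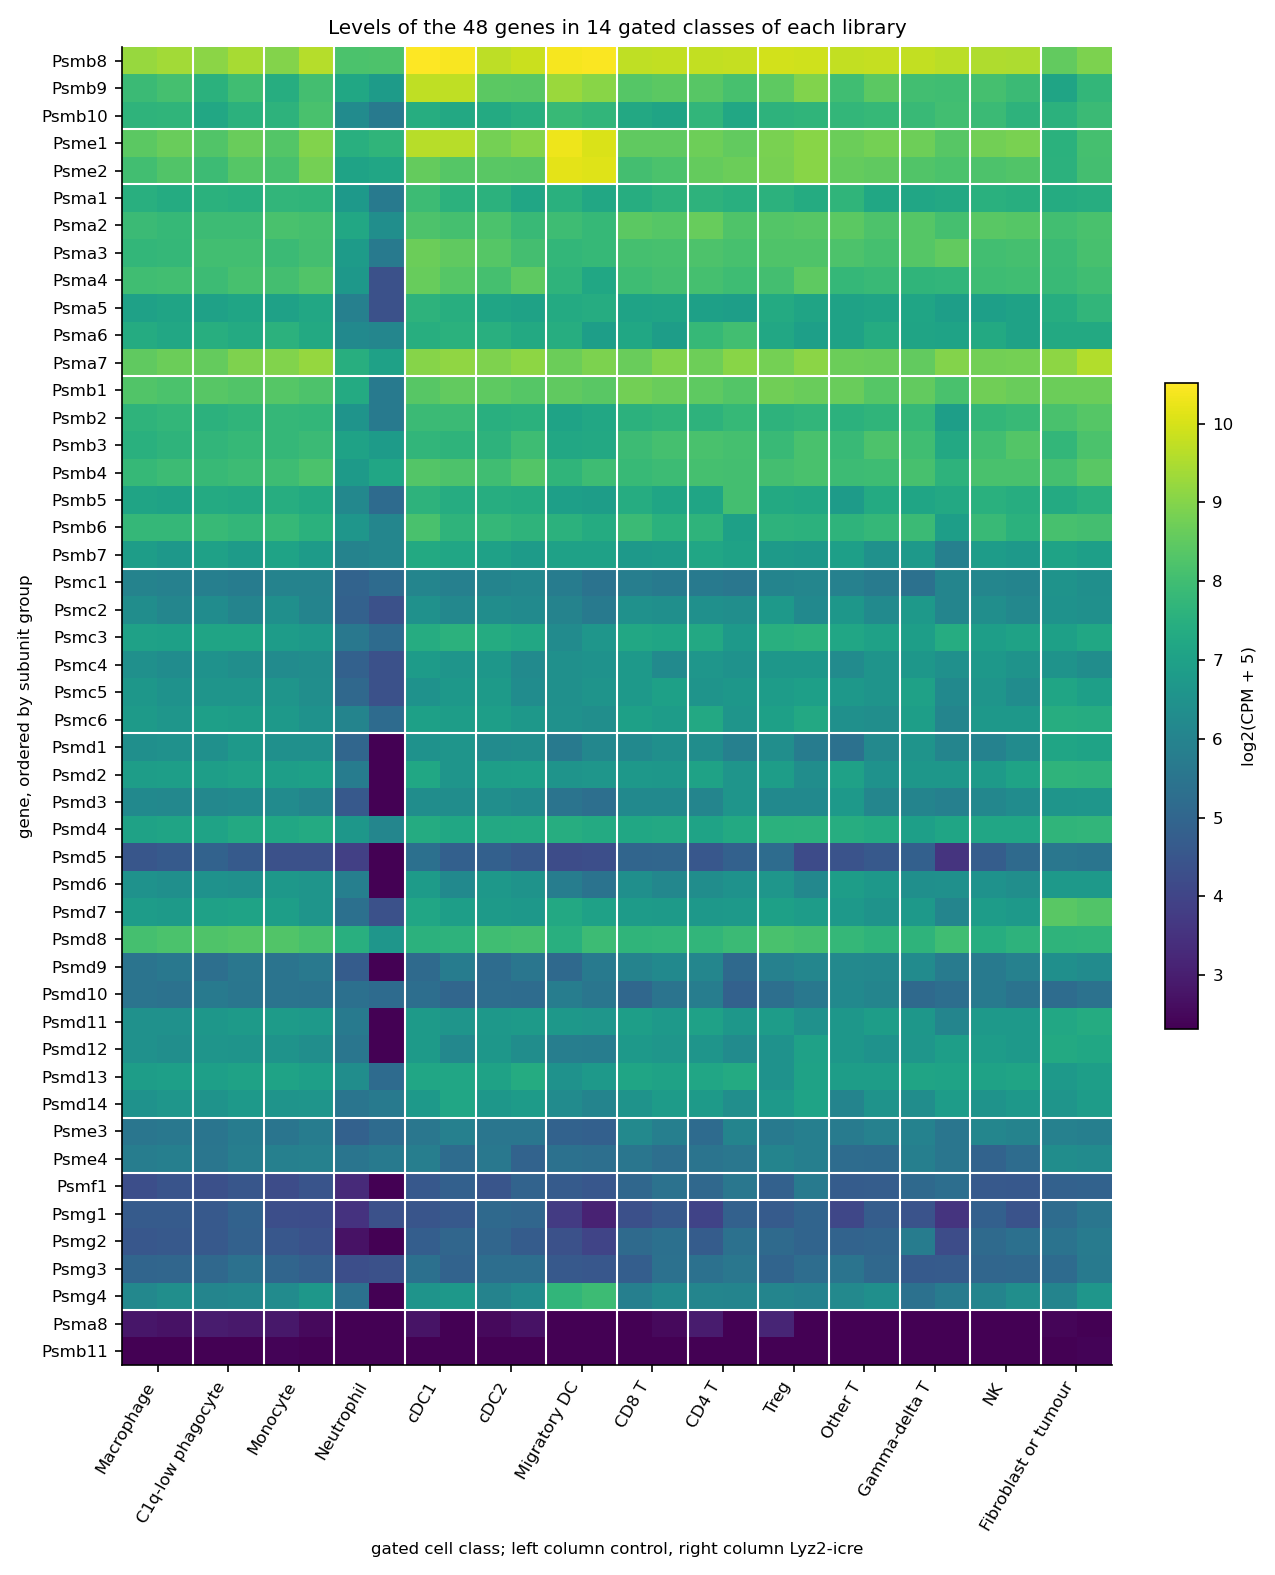
Level of each of the 48 genes, as log2(CPM + 5) by colour, in 14 gated cell classes; rows are genes by subunit group and each class has a left column for control and a right column for Lyz2-icre. Psmb8, Psmb9 and Psme1 brighten in cDC1- and migratory DC-gated cells, and Psme2 in migratory DC-gated cells. The constitutive rows keep similar colours across most classes, and Psma8 and Psmb11 lie at the bottom of the colour scale throughout.

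The PA28 chains peaked in a different dendritic class from Psmb9. In migratory DC-gated cells Psme1 reached 1261 CPM (control) and 1057 CPM (Lyz2-icre), and Psme2 reached 1154 and 1113 CPM. In cDC1-gated cells Psme1 stood at 781 CPM in both libraries. Psme2 did not stand out there, with 378 and 324 CPM against medians over the 14 classes of 302 and 323 CPM. Migratory dendritic cells are the mature, Ccr7-positive cells that travel to lymph nodes, and their summed level of the 5 genes was the highest of all classes (4614 and 4302 CPM). cDC1-gated cells came next (3627 and 3475 CPM), then regulatory T-gated cells (2437 and 2711 CPM). In control the lowest sums were those of neutrophil-gated cells (808 CPM) and fibroblast- or tumour-gated cells (1052 CPM).

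Constitutive subunits were spread more evenly. Their sum lay between 4364 CPM (migratory DC) and 6055 CPM (fibroblast or tumour) in 13 of the 14 control classes, with neutrophil-gated cells below at 2371 CPM. Migratory DC-gated cells thus joined the highest level of the interferon-inducible genes to the lowest constitutive level outside neutrophils. Within macrophage-gated cells of the control library the 34 subunits ranged from 18.0 CPM for Psmd5, which helps to assemble the 19S base, to 361 CPM for the core alpha subunit Psma7, with a median of 113 CPM. Psmb1, Psmd8, Psma4 and Psma2 were next to Psma7 in level, with 305, 268, 249 and 234 CPM. Psmd7, a lid subunit of 19S, had the widest range among classes of the constitutive genes in control (9.45-fold), with 333 and 306 CPM in fibroblast- or tumour-gated cells against 109 and 106 CPM in macrophage-gated cells. Psma8, the testis form of Psma7, and Psmb11, the thymus form of Psmb5, were under 10 CPM in every class, and 46 of the 48 genes passed the 10 CPM minimum in macrophage-gated cells.

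The exchange of catalytic subunits was read as the share of Psmb8, Psmb9 and Psmb10 UMIs among those plus the UMIs of Psmb5, Psmb6 and Psmb7. In the control library this immunoproteasome share was highest in migratory DC-gated (83.6%, 82.3 to 84.9) and cDC1-gated cells (79.9%, 77.9 to 81.7). Lymphocyte classes lay between 70.5% (NK) and 77.3% (regulatory T), macrophage-gated cells at 69.0% (68.7 to 69.4), and monocyte-gated cells at 62.6% (61.1 to 64.0). Fibroblast- or tumour-gated cells were lowest at 54.9% (53.2 to 56.6). Neighbours in the order, such as cDC2-gated (72.2%) and CD8 T-gated cells (72.5%), had overlapping intervals. The share counts transcripts and not assembled particles.

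In the Lyz2-icre library the share was higher in 13 of the 14 classes, the exception being CD4 T-gated cells (74.7% and 71.9%). The intervals of the 2 libraries did not overlap in monocyte-gated (62.6% and 74.7%), C1q-low phagocyte-gated (63.1% and 70.7%), fibroblast- or tumour-gated (54.9% and 62.2%) and macrophage-gated cells (69.0% and 72.0%). In the other 10 classes the intervals overlapped. In cDC1-, migratory DC-, gamma-delta T-, NK- and neutrophil-gated cells the summed CPM of Psmb8, Psmb9 and Psmb10 was lower in Lyz2-icre, and that of their counterparts was lower by a larger share. In NK-gated cells, for example, the sums were 1246 and 1150 CPM against 521 and 451 CPM. In control the monocyte share was below that of macrophages, and in Lyz2-icre it was above it. Among the 3 pairs, Psmb8 with Psmb5 was furthest towards the inducible subunit in monocyte-gated cells (75.1% and 83.6%), Psmb10 with Psmb7 intermediate (59.4% and 72.2%) and Psmb9 with Psmb6 lowest (43.4% and 58.6%). In CD8 T-gated cells the pairs moved in different directions, with Psmb9 over Psmb6 at 58.0% and 65.6% and Psmb10 over Psmb7 at 59.0% and 55.1%.

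**Figure D2:**
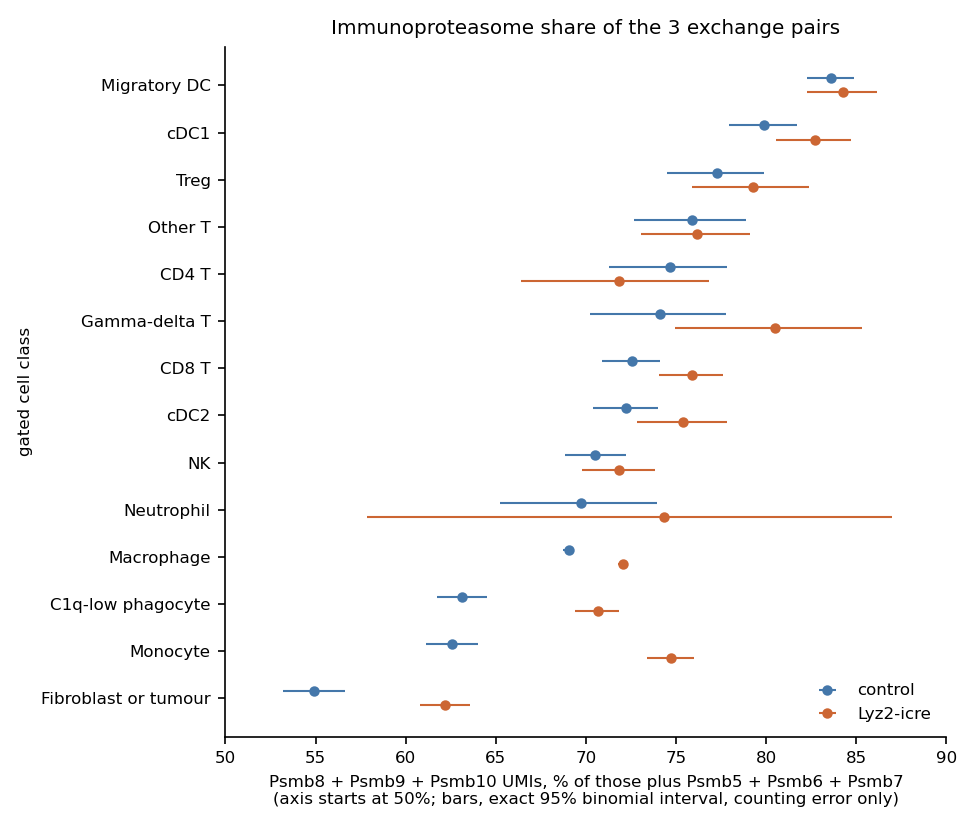
Share of Psmb8, Psmb9 and Psmb10 UMIs among the UMIs of the 3 exchange pairs (x axis, %, starting at 50) by gated class, for control (blue) and Lyz2-icre (orange), with exact binomial intervals for counting error. Classes are ordered by the control value, from 54.9% in fibroblast- or tumour-gated to 83.6% in migratory DC-gated cells, and the gap between libraries is widest in monocyte-gated cells.

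The main comparison asked whether proteasome genes differed between genotypes in macrophages, where Spp1 RNA was nearly absent in the Lyz2-icre library. None of the 46 measured genes rose or fell. Over all genes tested in this class, 3.24% were higher and 6.04% lower by that rule. Within that limit the 5 interferon-inducible genes were all higher in Lyz2-icre, with a median log2 ratio of 0.18, while the constitutive median was -0.02 and the median of all 7893 genes -0.01. Their sum was 1634 and 1829 CPM (ratio 1.12, 1.11 to 1.13), against 4726 and 4748 CPM for the constitutive sum (ratio 1.005, 0.9997 to 1.010). Beside these values, Cxcl9 had 720 and 899 CPM, cells with Y-linked and no Xist RNA were 1314 of 5422 and 1831 of 9949, and median depth was 9961 and 6779 UMIs. The part of depth in the result was not tested beyond an equal draw of 2000 UMIs per cell, where the inducible median was 0.23.

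Psme2, the PA28 beta chain, had the largest ratio of the 5, with 258 and 309 CPM (1.20, 1.17 to 1.22). Psme1 stood at 346 and 392 CPM (1.13), Psmb9 at 237 and 270 CPM (1.14) and Psmb8 at 597 and 659 CPM (1.10). Psmb10 was at 196 and 199 CPM, with an interval that included 1 (0.993 to 1.04). Of the subunits they replace, Psmb7 stood at 114 and 98.1 CPM (0.862, 0.834 to 0.892), Psmb5 at 133 and 126 CPM (0.9501) and Psmb6 at 215 and 214 CPM (0.993). Psmb10 thus held 63.2% of its pair's UMIs in control and 67.0% in Lyz2-icre with little difference in its own level.

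All 6 ATPases of the 19S base, the ring that unfolds substrates, had log2 ratios below 0, where 45.4% of all genes of the class were above 0. They had a sum of 540 and 494 CPM (ratio 0.915, 0.901 to 0.930). Psmc2 had the lowest ratio of the 46 measured genes (76.4 and 63.4 CPM, 0.829), followed by Psmb7, then by Psmc6 (105 and 94.0 CPM), Psmc5 (95.6 and 85.7 CPM) and Psmc4 (81.9 and 74.6 CPM). Of the 14 non-ATPase subunits 9 were above 0 and 5 below, and the core alpha subunits were 4 and 3. Psma7 (361 and 407 CPM, 1.13), Psmb3 (179 and 195 CPM) and Psmd9, an assembly factor of the base (39.3 and 43.3 CPM), were among the higher constitutive genes, and Psma6 (159 and 146 CPM) was among the lowest. The assembly chaperone Psmg4, which helps to build the alpha ring, had the same ratio as Psme2 (65.5 and 78.4 CPM, 1.20), and the inhibitor Psmf1 had 14.5 and 16.7 CPM (1.15).

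**Figure D3:**
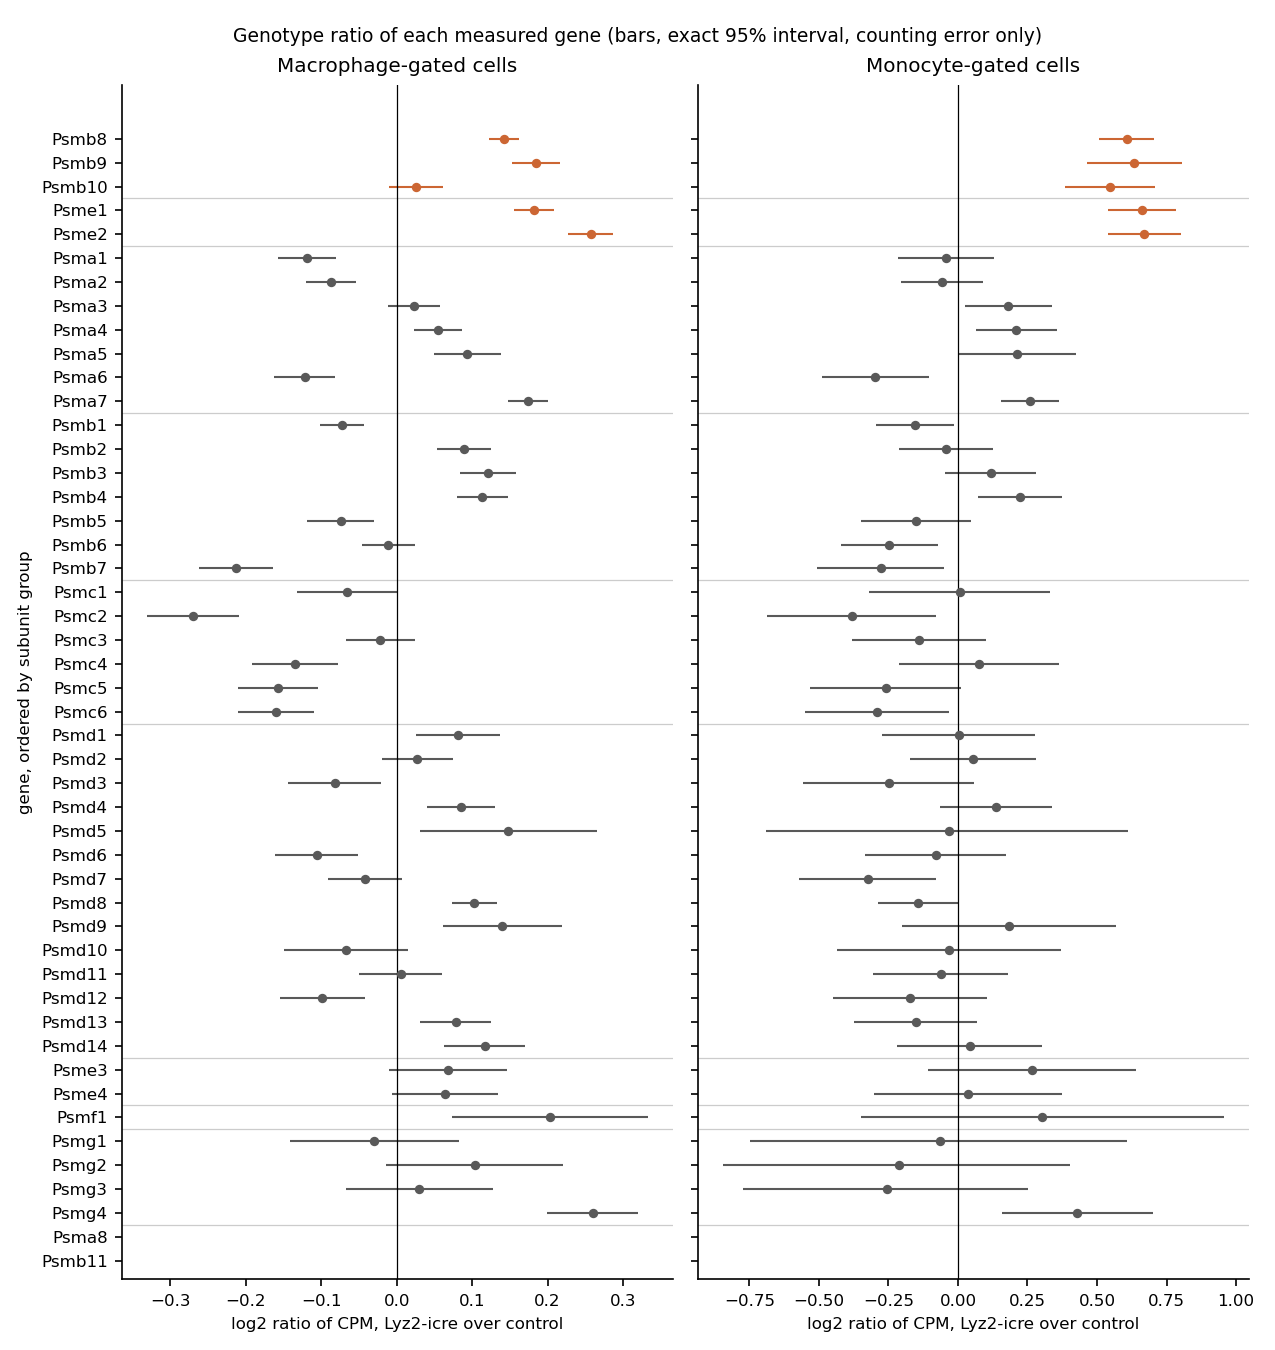
Log2 ratio of CPM (x axis, Lyz2-icre over control) of each measured gene, by subunit group, in macrophage-gated (left) and monocyte-gated cells (right), with exact 95% counting intervals; interferon-inducible genes are orange and the x scales differ. In macrophages no ratio passes the 25% and 20% limits and the 6 Psmc genes are below 0, and in monocytes the 5 interferon-inducible genes stand above nearly all others.

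Macrophage-gated cells were also read within sex. Cells with Xist and no Y-linked UMI (3269 control and 5722 Lyz2-icre) had an interferon-inducible sum of 1483 and 1741 CPM (ratio 1.17, 1.16 to 1.19). Cells with a Y-linked UMI and no Xist (1314 and 1831) had 1898 and 1989 CPM (ratio 1.05, 1.03 to 1.07). Male cells were thus above female cells in both libraries. The constitutive ratio was 0.994 in female and 1.02 in male cells. Among female cells Psme2 rose (231 and 291 CPM, ratio 1.26) and Psmc2 fell (78.6 and 60.3 CPM, ratio 0.767). Which mice the cells of each sex came from was not known, and the difference between the sexes was not tested.

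Monocyte-gated cells showed the widest difference, with 390 control and 543 Lyz2-icre cells. All 5 interferon-inducible genes rose. Psmb8 went from 504 to 768 CPM (ratio 1.52, 1.42 to 1.63), Psmb9 from 168 to 261 CPM (1.55), Psmb10 from 191 to 279 CPM (1.46), Psme1 from 314 to 497 CPM (1.58) and Psme2 from 274 to 437 CPM (1.59). Their sum was 1452 and 2241 CPM (ratio 1.54, 1.48 to 1.61), while the constitutive sum was 5253 and 5208 CPM (0.991, 0.969 to 1.01). In all, 6 of the 46 measured genes rose, the sixth being Psmg4 (71.6 and 96.4 CPM, 1.35), and 2 fell, Psmc2 (78.6 and 60.4 CPM, 0.768) and Psmd7 (115 and 91.9 CPM, 0.798). Over all genes of this class 19.7% were higher and 13% lower by the rule, so the count of members was not above the background. The 3 replaced subunits Psmb5, Psmb6 and Psmb7 had ratios of 0.901, 0.843 and 0.825.

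Other features of the monocyte gate moved with this result. Ly6c2, a marker of classical monocytes, had 545 and 1266 CPM, and the interferon-gamma-induced chemokine Cxcl9 had 229 and 672 CPM. The 9 macrophage markers summed to 5483 and 4825 CPM, with none at 0. Median depth was 7422.5 and 3887 UMIs, and male cells were 59 of 390 and 128 of 543. Within sex the interferon-inducible ratio was 1.66 (1.58 to 1.75) in female and 1.20 (1.10 to 1.31) in male cells. Among cells with a Ly6c2 UMI (234 and 460) the median log2 ratio was 0.42, against 0.62 in the whole gate. Among cells with no Cxcl9 UMI (273 and 333) it was 0.68. Both subsets were chosen after seeing the data. They were taken at full depth, so a missing UMI meant less in the shallower Lyz2-icre cells. The part of the macrophage markers in the result was not tested.

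C1q-low phagocyte-gated cells, which carry macrophage markers with little complement C1q RNA (412 and 676 cells), had a sum of 1408 and 1838 CPM (ratio 1.31, 1.26 to 1.36). All 5 interferon-inducible genes rose, from Psmb8 (534 and 685 CPM, 1.28) to Psmb9 (183 and 250 CPM, 1.36). The constitutive sum was 4992 and 5165 CPM (1.03). Here 10 of 46 genes rose and 0 fell, against 16.7% and 11.6% of all genes, a share near the background. The other 5 that rose were Psma7, Psmd1, Psmg1, Psmg2 and Psmg3. Within sex the ratio was 1.41 in female and 1.19 in male cells. Cxcl9 had 305 and 556 CPM in this class, the 7 neutrophil markers summed to 565 and 63.1 CPM (1 at 0 in Lyz2-icre), and median depth was 8031 and 4612 UMIs. Markers of B cells summed to 2309 and 1563 CPM and those of fibroblasts or tumour cells to 18.5 and 93.7 CPM. The part of these in the result was not tested.

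Fibroblast- or tumour-gated cells were few for a CD45+ sort (174 and 285) and had little of the CD45 gene Ptprc (23.9 and 26.3 CPM, against 459 and 435 CPM in macrophage-gated cells). Collagen markers were present, Krt8 and Krt18 were at 0, and Spp1 was kept (142 and 147 CPM). These markers did not tell fibroblasts and MC38 cells apart. Cells with neither, or both, of Xist and Y-linked RNA were 151 of 174 and 251 of 285. In macrophage-gated cells such cells were 839 of 5422 and 2396 of 9949. Whether the gate held mainly tumour or host cells was not tested. The interferon-inducible sum of fibroblast- or tumour-gated cells was 1052 and 1451 CPM (ratio 1.38, 1.32 to 1.45), and the constitutive sum 6055 and 6545 CPM (1.08, 1.06 to 1.10). Psmb9 rose from 132 to 208 CPM (1.57), Psme1 from 183 to 269 CPM (1.47), Psme2 from 187 to 263 CPM (1.41), Psmb8 from 365 to 475 CPM (1.30) and Psmb10 from 185 to 236 CPM (1.28). In all 12 of 46 genes rose and 0 fell, against 12.4% and 20.8% of all genes. The others were all 4 assembly chaperones, led by Psmg4 (60.3 and 93.9 CPM, 1.56), and the core subunits Psma7 (552 and 749 CPM, 1.36), Psmb3 (208 and 286 CPM, 1.38) and Psmb4 (268 and 338 CPM, 1.26). Of 6 cycling genes 5 rose as well, and the cycling sum had a ratio of 1.50 (1.43 to 1.58). The 9 macrophage markers summed to 642 and 801 CPM, and Cxcl9 had 114 and 192 CPM. The part of cell division and of RNA from other cells in the result was not tested.

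CD8 T-gated cells, the lymphocytes that read class I peptides, showed little difference in the interferon-inducible genes. Their sum was 1941 and 1983 CPM (ratio 1.02, 0.969 to 1.08) and the constitutive sum 5189 and 5215 CPM (1.01, 0.973 to 1.04). By the rule 7 of 46 genes rose and 5 fell, against 14.5% and 24.6% of all genes, and none of the 12 was interferon-inducible. The count that rose was near the background. Intervals clear of 1 were found for Psmg3 (22.4 and 36.4 CPM, 1.63), Psma7 (397 and 497 CPM), Psmb6 (232 and 181 CPM, 0.780), Psmc4 (99.9 and 70.5 CPM, 0.706) and Psma6 (141 and 112 CPM, 0.796). The other 7, Psmd10, Psmd14, Psmf1, Psmg1 and Psmg4 among those that rose and Psmd6 and Psme3 among those that fell, had intervals that included 1. The proteasome activator Psme4 was at 41.2 and 34.9 CPM. Ifng, the gene for interferon-gamma, rose in these cells (495 and 724 CPM, ratio 1.46).

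**Figure D4:**
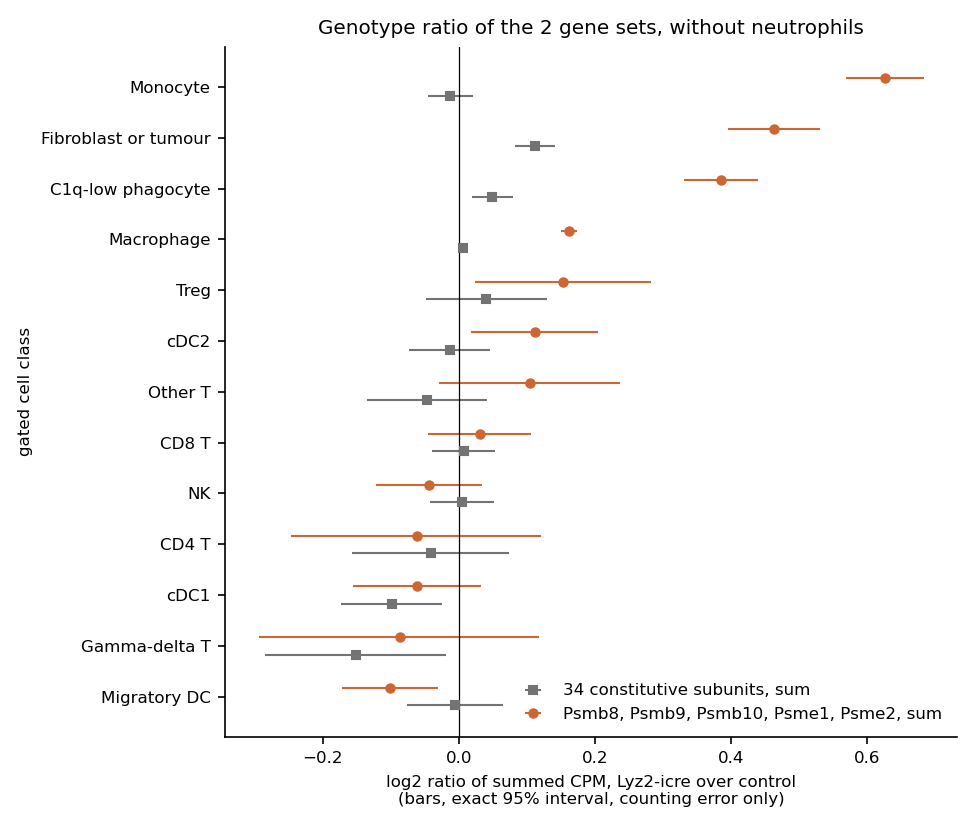
Log2 ratio of summed CPM (x axis, Lyz2-icre over control) for the 5 interferon-inducible genes (orange) and the 34 constitutive subunits (grey) in 13 gated classes, with exact 95% counting intervals; neutrophils are left out because the Lyz2-icre library held 51 and 84 UMIs of these sets. The orange points of monocytes, fibroblast or tumour cells, C1q-low phagocytes and macrophages lie above their grey points with no overlap of intervals, and the other classes lie nearer to 0.

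In the remaining classes the interferon-inducible ratio lay between 0.932 (0.888 to 0.979) in migratory DC-gated cells, where the level was highest, and 1.11 (1.02 to 1.22) in regulatory T-gated cells. It was 0.958 in cDC1-gated, 1.08 in cDC2-gated (1.17, 1.08 to 1.27, in female and 0.863, 0.737 to 1.01, in male cells) and 0.970 in NK-gated cells. Male cDC2-gated cells numbered only 15 in control and 21 in Lyz2-icre. Neutrophil-gated cells of the Lyz2-icre library numbered 57 with a median of 1100 UMIs, and their constitutive ratio of 0.550 rests on 84 UMIs there against 1478 in control.

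Cxcl9 marks macrophages that have responded to interferon-gamma and is not a proteasome gene, so it was used to split macrophage-gated cells inside each library. Cells with at least 2000 UMIs were drawn down to 2000 UMIs each (5073 control and 8886 Lyz2-icre). A Cxcl9 UMI was then present in 29.9% of control and 42.9% of Lyz2-icre cells, with median depths of 10302 and 7244 UMIs in these cells before the draw. Over all macrophage-gated cells at full depth the shares were 46.3% and 57.8%. In NK-gated cells, used as a class that should lack Cxcl9, the thinned shares were 6.60% and 10.2% with medians of 6662.5 and 4527.5 UMIs before the draw.

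Interferon-inducible proteasome genes were higher in the cells with Cxcl9 in both libraries. Their sum was 2102 CPM with and 1346 CPM without Cxcl9 in control (ratio 1.56, 1.51 to 1.61), and 2085 and 1563 CPM in Lyz2-icre (1.33, 1.30 to 1.36). Constitutive sums had ratios of 1.02 and 1.06, and 0 of the 34 constitutive genes were 25% or more above in either library. All 5 inducible genes were, against 8.74% of all genes in control and 6.10% in Lyz2-icre. Psme2 had the largest ratio in both libraries (1.76 in control and 1.44 in Lyz2-icre), and the control ratios of the others were 1.60 for Psmb8, 1.52 for Psmb10, 1.48 for Psmb9 and 1.45 for Psme1. Psmb10, which had differed least between genotypes, was no exception here. In the same split the class I transporter gene Tap1 had ratios of 1.81 and 1.54, and the assembly factor Pomp, which matures the core particle, 1.13 and 1.20.

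The inducible sum was higher in cells with more Cxcl9 UMIs. In control it was 1346 CPM at 0 UMIs, then 1678, 1908, 2390 and 2463 CPM at 1, 2, 3 or 4 and 5 or more UMIs. In Lyz2-icre the same steps had 1563, 1837, 1967, 2110 and 2419 CPM. Control was below Lyz2-icre at 0 and 1 UMIs and above it at 3 or 4 UMIs, and the counting intervals overlapped at 2 and at 5 or more UMIs. Constitutive sums ran from 4415 to 4980 CPM in control and from 4575 to 5037 CPM in Lyz2-icre over these steps. A split by the cycling genes Mki67 or Top2a gave inducible ratios of 1.02 in control and 1.08 in Lyz2-icre. The 5 genes were not alike in it, with ratios of 1.18 and 1.26 for Psmb9, 1.09 and 1.18 for Psmb8 and 0.849 and 0.933 for Psme1, all with intervals clear of 1. Of the 34 constitutive genes, 7 in control and 2 in Lyz2-icre were 25% or more above in cycling cells, against 24.1% and 21.5% of all genes. In that split the chaperone Psmg2 was higher in cycling cells in both libraries (1.90 in each), and so was the ATPase gene Psmc3 (1.38 and 1.27).

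**Figure D5:**
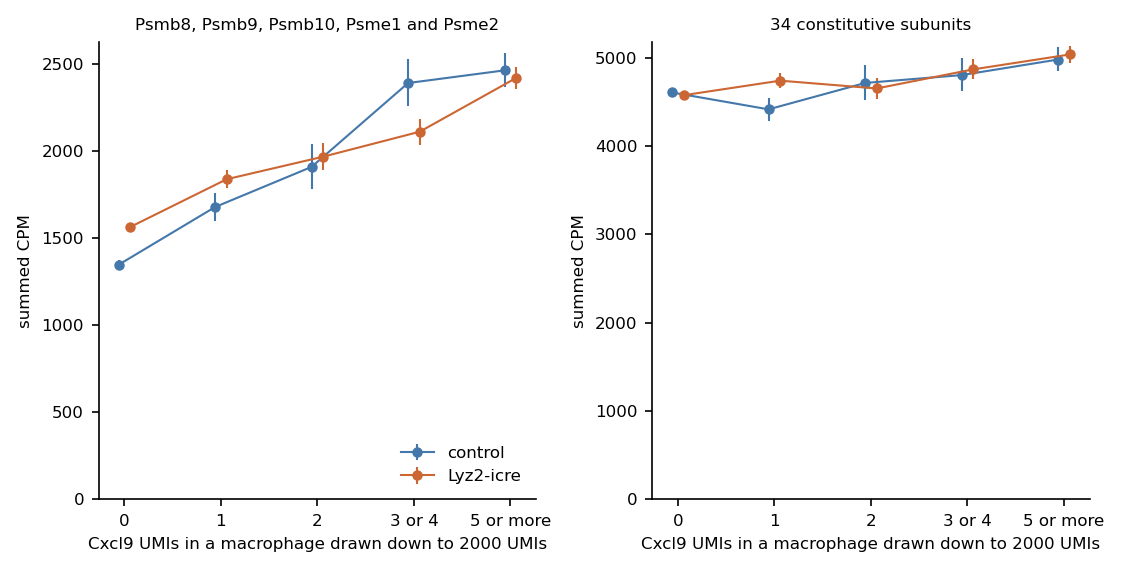
Summed CPM (y axis, from 0) of the 5 interferon-inducible genes (left) and of the 34 constitutive subunits (right) in macrophage-gated cells drawn down to 2000 UMIs, by the number of Cxcl9 UMIs (x axis), for control (blue) and Lyz2-icre (orange), with exact 95% Poisson intervals. The left lines climb from 1346 and 1563 CPM to 2463 and 2419 CPM, and the right lines stay between 4415 and 5037 CPM.

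Other genes of the pathway were read from lists. Of 12 genes of class I peptide loading, 0 rose or fell in macrophage-gated cells, where 3.24% of all genes rose and 6.04% fell. Of the 12, 11 had log2 ratios above 0, and the median was 0.13. The nearest to the limit was the loading factor tapasin, Tapbp (234 and 292 CPM, ratio 1.248). In monocyte-gated cells 8 of the 12 rose and 0 fell, where 19.7% of all genes rose, with a median of 0.43 against 0.06 for all genes. These included Tap1 (118 and 196 CPM, 1.66), Tapbp (221 and 374 CPM, 1.69) and the class I gene H2-K1 (1267 and 1714 CPM, 1.35). In CD8 T-gated cells 0 rose and 1 fell, where 14.5% of all genes rose and 24.6% fell. The 1 was Nlrc5, a regulator of class I genes (111 and 79.0 CPM, 0.709). In fibroblast- or tumour-gated cells 1 rose, Tapbp (193 and 269 CPM, 1.39), near the 12.4% of all genes.

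Of the interferon-gamma signalling genes, 2 of 12 measured rose in macrophage-gated cells, among them the feedback inhibitor Socs1 (17.3 and 25.3 CPM, 1.46). Over all genes 3.24% rose and 6.04% fell in that class, and 19.7% and 13% in monocyte-gated cells. In monocyte-gated cells 9 of 12 rose and 0 fell, with a median log2 ratio of 0.70, among them Cxcl9 (2.94), Gbp2 (160 and 331 CPM, 2.07) and Irf1 (101 and 206 CPM, 2.03). In fibroblast- or tumour-gated cells 4 of 12 rose, where 12.4% of all genes did. In CD8 T-gated cells 3 of 13 rose and 3 fell, near the 14.5% and 24.6% of all genes. Cxcl9 was among those that rose (96.9 and 150 CPM). It was also higher in NK-gated cells (36.2 and 143 CPM), the class that should lack it. The part of RNA from other cells in these Cxcl9 values was not tested. Proteasome assembly and regulation outside the Psm symbols gave fewer calls. Of 11 genes, the nuclear import factor Akirin2 rose (27.4 and 35.7 CPM, 1.30) and the deubiquitinase gene Uchl5 fell (47.4 and 37.4 CPM, 0.788) in macrophage-gated cells. Pomp was at 405 and 444 CPM there (1.10) and rose in monocyte-gated cells (440 and 576 CPM, 1.31). Of 10 ubiquitin genes and shuttles, 0 rose or fell in macrophage-gated cells, and Sqstm1, an autophagy receptor, fell in monocyte-gated (119 and 81.9 CPM, 0.687) and fibroblast- or tumour-gated cells (210 and 160 CPM, 0.762).

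Likeness to the inducible genes was measured over 22 sums, the 11 classes with at least 50 cells in both libraries, as Pearson's r with the mean of the 5 z-scored genes. The limit left out cDC1-gated cells (40 and 46), which were second in the inducible sum, and CD4 T- and gamma-delta T-gated cells. It kept the neutrophil-gated Lyz2-icre cells, with 64395 UMIs in all. These sums share libraries and free RNA, and r is given as a description. Of 9804 other genes the highest were Rnaset2a (0.94), Hint3 (0.91), Rftn1 (0.88), Gtpbp1 (0.88), Stat5a (0.88), Zfp524 (0.87), Tapbpl (0.87), Ssh1 (0.87), Tapbp (0.86) and Mettl17 (0.86). In control all of these were higher in migratory DC-gated than in macrophage-, neutrophil- and fibroblast- or tumour-gated cells. The part of the migratory DC class in r was not tested. Tapbp and Tapbpl, both class I peptide editors, are also in the peptide loading list. Tap1 had 0.73 and ranked 223 of 9804, and Cxcl9, which split macrophages by the same genes, had -0.04 over classes. Of the other proteasome genes Psmg4 had the highest r (0.78). It peaked in migratory DC-gated cells (206 CPM control, 239 CPM Lyz2-icre), as Psme1 and Psme2 did.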

How the data were processed

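CD45+ 7-AAD- cells of MC38 tumours were profiled on the 10x platform, 1 library per genotype. The authors deposited raw UMI counts per gene and cell as filtered matrices. Per the submitters' processing notes, bcl2fastq (listed with version 5.0.1), Cell Ranger and mm10 were used, and per the file headers the matrices came from Cell Ranger 8.0.1; the annotation release is not given in the sources used here.

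Cells had at least 300 genes and 500 UMIs and at most 15% mitochondrial UMIs, which left 8724 and 13915 cells with 88047097 and 98256831 UMIs. A cell passed a gate with a UMI of at least 3 markers. Cells passing several lineages, or with C1q above 25% of the macrophage median in another gate, were left out as possible doublets, and no doublet caller was run. The minimum on C1q for macrophages, the C1q-low class, the precedence of other lineages over monocytes and the choice of dendritic subclass by list share were set after seeing the data. Counts were summed per class and library and scaled to CPM, with exact binomial, conditional binomial and Poisson intervals (Python 3.11.15, numpy 2.4.6, scipy 1.17.1, pandas 2.3.3, matplotlib 3.10.9). The calculations were tested on simulated data. The genes named are the 5 interferon-inducible genes and their counterparts, the 5 highest and 5 lowest other members by control macrophage level and by ratio in macrophage- and CD8 T-gated cells, members under 10 CPM throughout and the 10 best correlates. Members past the limits in the phagocyte, monocyte, CD8 T and fibroblast or tumour classes were added after their values were seen. Members and lists were chosen with earlier results of these data known. Alternatives covered gates, filters, depth, scaling, the CPM added, sex and cycling, but not each was run for every result. Values of 1 gene of the pathway lists are not reported here.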

Additional observations from a re-analysis of the deposited data

Results flagged for a closer look

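In 7 classes the ratio of the summed interferon-inducible genes, Lyz2-icre over control, had a counting interval clear of 1. The ratios were 1.12 in macrophage-gated, 1.31 in C1q-low phagocyte-gated, 1.54 in monocyte-gated, 1.08 in cDC2-gated, 1.11 in regulatory T-gated and 1.38 in fibroblast- or tumour-gated cells, and 0.932 in migratory DC-gated cells. The last lies on the other side of 1 from the others.

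The constitutive sum had an interval clear of 1 in 5 classes, with ratios of 1.03 in C1q-low phagocyte-gated, 1.08 in fibroblast- or tumour-gated, 0.934 in cDC1-gated, 0.900 in gamma-delta T-gated and 0.550 in neutrophil-gated cells. In cDC2-gated cells the constitutive ratio was 1.06 in female and 0.811 in male cells, on opposite sides of 1. The inducible ratio of that class was likewise 1.17 in female and 0.863 in male cells. These ratios rest on 102 control and 53 Lyz2-icre female cells, and on only 15 and 21 male cells. With 1 library per genotype, the differences between classes and between sexes were not tested.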

How the results depend on the processing

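The interferon-inducible medians of macrophage-, monocyte- and fibroblast- or tumour-gated cells stayed above 0 under all alternatives run. In macrophage-gated cells the interferon-inducible median log2 ratio of 0.18 became 0.23 at 2000 UMIs per cell, 0.23 in female cells, 0.039 in male cells and 0.15 without cells holding a Mki67 or Top2a UMI. The constitutive median of -0.02 became 0.028 in male cells and 0.033 without such cycling cells. The difference between these medians, 0.20, was 0.29 in female cells, 0.011 in male cells and 0.11 without cycling cells. Against 0 genes that rose, 1 did at 2000 UMIs (Psmf1), 1 in female cells (Psme2) and 2 in male cells (Psmd5 and Psmg3). Against 0 that fell, 1 did in female cells (Psmc2) and 1 with no minimum on CPM (Psma8). The share of all genes past the limits was not computed for these alternatives, so these counts have no background beside them.

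The immunoproteasome share in macrophage-gated cells was higher in Lyz2-icre by 2.99 percentage points. It was higher by 2.41 at 2000 UMIs, 4.16 in female cells, 1.64 in male cells, 2.12 for Psmb8 with Psmb5 and 3.76 for Psmb10 with Psmb7. In CD8 T-gated cells the difference of 3.35 points was 7.56 for Psmb9 with Psmb6 and turned to -3.86 for Psmb10 with Psmb7. Splitting macrophages by Cxcl10 in place of Cxcl9 gave 1.19 in control and 1.15 in Lyz2-icre against 1.56 and 1.33, and without cycling cells the Lyz2-icre value was 1.39.

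In monocyte-gated cells the median of 0.62 was 0.51 with 4 markers, 0.38 in male cells and 0.42 among cells with a Ly6c2 UMI, a subset chosen after seeing the data. Of these 3 classes, only macrophage-gated cells were read without cycling cells, and fibroblast- or tumour-gated cells were not read by sex. In the 11 alternatives run for fibroblast- or tumour-gated cells, the median of 0.48 took values from 0.41 to 0.64. All lay between 0.33 and 0.66, the medians of the lower and of the upper counting limits of the single genes. That range is not an interval of the median itself. The cause of these shifts was not tested. No paired analysis was possible because each genotype had 1 library. A single library per genotype, unknown numbers of mice and shallower Lyz2-icre cells limit all comparisons between genotypes.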
